A study of Homo sapiens with 4 samples.

Results

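The transcripts described here are those whose level fell 4-fold or more with each of 3 DNA-demethylating drugs in HML58-3 cells. The level of a probe is the log2 of its background-corrected intensity minus the 75th percentile of the gene probes on the same array, so that 0 is a bright probe and 1 unit is a 2-fold change. A probe was taken when its level was -1 or more on the mock array and lower by 2 or more on each of the drug arrays, of DAC, OR-2003 and OR-2100. Of 58201 probes, 18035 reached -1 on the mock array, and 237 of these were members, which is 1.31%. Of the member probes, 192 named 178 genes and 45 had no gene symbol. The members were chosen by the levels reported below, so the size of their reduction is a description and carries no test.

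HML58-3 cells derive from the human colon cancer line HCT116 and carry a luciferase gene under a methylated marker promoter. Cells received no drug (mock), decitabine (DAC), OR-2003 or OR-2100, each drug at 1 µM from day 1, and RNA was taken on day 5. OR-2003 and OR-2100 are prodrugs of DAC, a cytidine analogue that traps DNA methyltransferases. Each condition was 1 array of 1 engineered line, so no difference below has a replicate check, and all 3 drug comparisons share the mock array.

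DNA-demethylating drugs are best known for switching on silenced genes, whereas the transcripts described here went the other way. Many of the best known among them belong to the amino acid response. In that pathway, shortage of amino acids or stress in the endoplasmic reticulum leads to phosphorylation of the initiation factor eIF2, which favours translation of the transcription factor ATF4. ATF4 in turn switches on genes for amino acid synthesis, amino acid uptake, the charging of tRNAs and stress signalling, many of them through a composite site for C/EBP and ATF proteins.

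The promoters of 3 of the most familiar members, CHAC1, ASNS and AARS1, are shown because each holds the letters TGATGNAA, the core of that composite site, on either strand. CHAC1 encodes an enzyme that degrades glutathione, ASNS encodes asparagine synthetase, and AARS1 encodes the cytosolic alanyl-tRNA synthetase. The sequences are the 250 bases before the start of each gene from RefSeq (GRCh38.p14), written 5′ to 3′ on the strand of the gene, with the match in capitals. They lie at chr15:40953221-40953470 on the plus strand for CHAC1, at chr7:97872409-97872658 on the minus strand for ASNS and at chr16:70289507-70289756 on the minus strand for AARS1.
CHAC1: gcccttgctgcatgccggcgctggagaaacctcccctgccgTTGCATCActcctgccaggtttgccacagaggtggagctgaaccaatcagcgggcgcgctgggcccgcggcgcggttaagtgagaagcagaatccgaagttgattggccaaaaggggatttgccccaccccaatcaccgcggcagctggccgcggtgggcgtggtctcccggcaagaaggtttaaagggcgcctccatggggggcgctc
ASNS: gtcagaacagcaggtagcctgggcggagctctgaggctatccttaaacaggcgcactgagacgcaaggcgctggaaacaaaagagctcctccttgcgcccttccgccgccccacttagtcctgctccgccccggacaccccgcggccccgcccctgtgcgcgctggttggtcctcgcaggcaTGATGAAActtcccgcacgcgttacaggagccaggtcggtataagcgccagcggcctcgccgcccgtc
AARS1: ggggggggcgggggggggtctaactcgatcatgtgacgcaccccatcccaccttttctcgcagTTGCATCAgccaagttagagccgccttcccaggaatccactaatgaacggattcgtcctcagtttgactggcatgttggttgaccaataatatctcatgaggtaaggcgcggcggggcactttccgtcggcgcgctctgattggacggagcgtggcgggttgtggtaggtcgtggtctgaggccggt
The match begins 209, 68 and 187 bases before the start of CHAC1, ASNS and AARS1. In CHAC1 and AARS1 the motif lies on the opposite strand, so that the printed strand reads TTGCATCA.

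The RefSeq table held a promoter of 300 bases, from 250 before to 50 after the start, for 142 of the 178 named member genes. TGATGNAA occurred in 6 of the 142 (4.23%), against 1.61% of the 9621 genes with a promoter that reached -1 on the mock array and 3.67% of all 27305 genes in the table. The other 3 with a match were GPX8, IL20RB and KLHDC7B, named after their values were seen. Among genes of the ATF4 list, the letters were present in 3 of 12 with a member probe (25%) and in 5 of 22 without one (22.7%), so within the list the shares were close. Such a match is a run of letters and says nothing of binding.

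The member promoters were poorer in CpG than those of other genes at this level. The observed to expected ratio of CpG had a median of 0.72 in members, 0.84 in genes at -1 or more on mock and 0.58 in all genes. It was under 0.6 in 49 of the 142 member genes (34.5%), against 17.7% of genes at that level and 51.0% of all. Of the 12 promoters of ATF4 list genes with a member probe, 1 was under 0.6, whereas 36.9% of the 130 other member genes were under 0.6. The letters TATAAA stood in 12.7% of member promoters, 5.85% of those at the level threshold and 11.95% of all. CCAAT (38.0, 37.2 and 35.7%), CACGTG (8.45, 10.3 and 7.43%) and TGACGTCA (2.82, 3.34 and 1.98%) were spread more evenly over the same sets. All motifs were searched on both strands, and none contains another.

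The members spanned almost the whole range of signal. Their levels on the mock array ran from the threshold up to 8.78 with a median of 1.41. Their medians on the drug arrays were -1.14 (DAC), -1.17 (OR-2003) and -1.22 (OR-2100), and each triplet of drug values below keeps this order. The median difference from mock was -2.41 with DAC, -2.47 with OR-2003 and -2.49 with OR-2100, which is 5.31-, 5.54- and 5.64-fold. All 18035 probes at -1 or more on mock had medians of -0.26, -0.25 and -0.28, and relative to that shift the members' medians were -2.15, -2.22 and -2.21. Each drug alone reduced 299 (1.66%), 307 (1.70%) and 330 (1.83%) of these probes 4-fold. A total of 390 probes fell 4-fold with at least 1 drug, of which the 237 members were 60.8%.

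**Figure D1:**
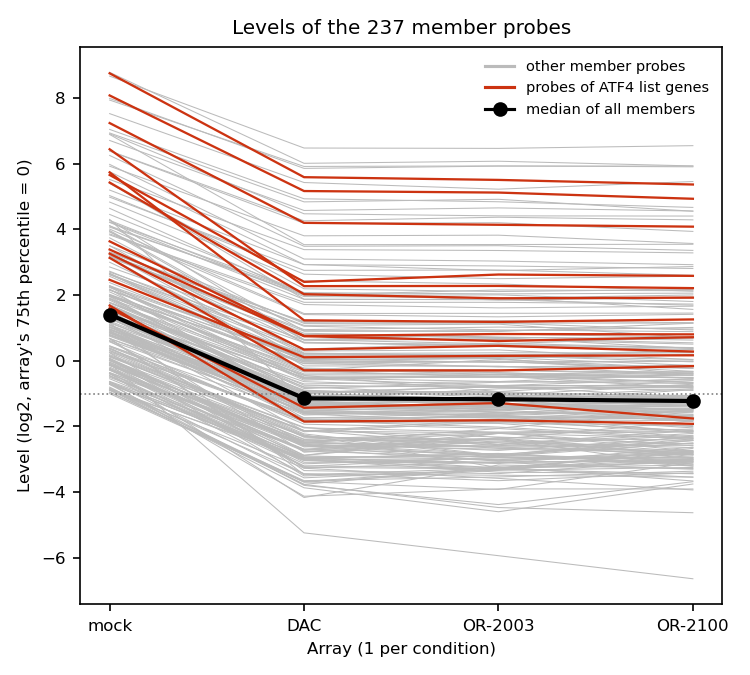
Level (log2, with the 75th percentile of each array at 0) of the 237 member probes on the 4 arrays, 1 array per condition, with probes of ATF4 list genes in red, the median of all members in black and the level threshold of -1 dotted. The median drops from 1.41 on mock to between -1.14 and -1.22 on the drug arrays, and the lines run nearly flat between the drugs.

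Reduced did not mean absent. Of the 237 member probes, 104 were still at -1 or more on all 3 drug arrays and 122 were below -1 on all of them. Well above background on all 4 arrays were 232 members. The mean difference over the drugs was 8-fold or more for 48 members and 16-fold or more for 6, whereas 130 members had a mean difference smaller than 2.5 log2 units. The threshold therefore runs through a crowd, with 51 members whose smallest reduction was within 0.1 of it and 55 other probes as close on the outside. Just inside stood a probe of the arginine synthesis gene ASS1, a probe of the pyruvate dehydrogenase kinase gene PDK3 and the non-coding RNA lnc-RP11-43D2.2.1-10:1, each reduced by 2 and less than 0.01 more on at least 1 drug array. MMAB, SHANK2 and YARS1, the tyrosyl-tRNA synthetase gene, stood just outside, and the smallest reduction of YARS1 was 1.998.

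**Figure D2:**
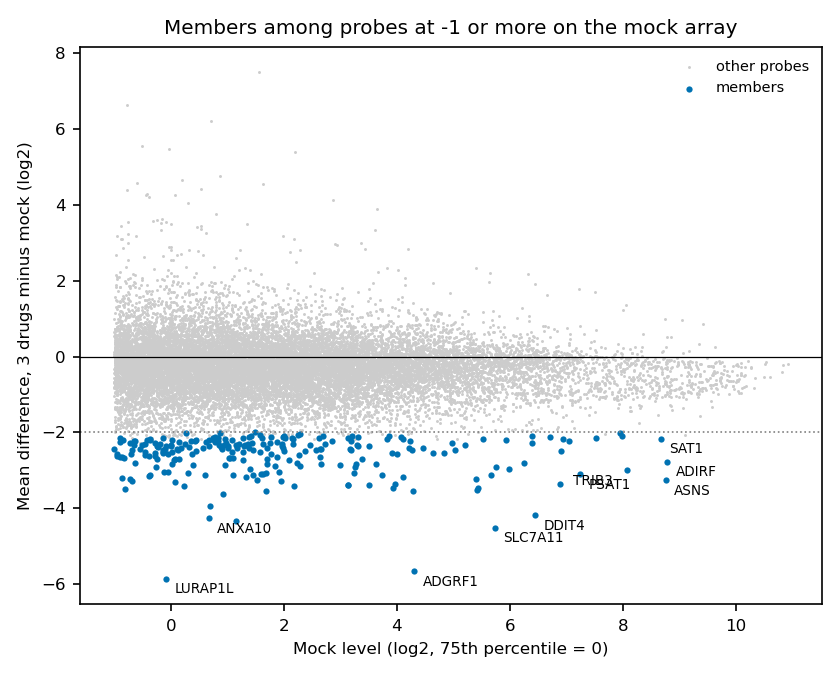
Mock level (log2, 75th percentile at 0) against the mean difference of the 3 drug arrays from mock (log2) for the 18035 probes at -1 or more on mock, with the 237 members in blue and the 4-fold line dotted. The members reach across the whole range of mock levels up to 8.78, and most sit close under the 4-fold line.

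The largest reductions among members with a gene name and well above background on all arrays concerned a receptor, a transporter and an annexin. ADGRF1, an adhesion G protein-coupled receptor, had levels of 4.30 on mock, -1.21 with DAC, -1.14 with OR-2003 and -1.71 with OR-2100, or 45.7-, 43.6- and 64.8-fold lower. SLC7A11, the cystine and glutamate exchanger that supplies cysteine for glutathione, went from 5.74 to 1.23, 1.18 and 1.26, or 22.7-, 23.5- and 22.3-fold lower. ANXA10, an annexin, went from 0.67 to -3.27, -3.58 and -3.93, or 15.4-, 19.0- and 24.3-fold lower. The spread between the drug arrays was 0.57 in ADGRF1, 0.66 in ANXA10 and under 0.1 in SLC7A11, in each case far smaller than the distance to mock.

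LURAP1L had the largest measured difference, but the drug arrays did not measure it. Its level was -0.08 on mock and -5.24, -5.93 and -6.64 on the drug arrays, none of them well above background. The bound set by the dimmest probes well above background is at least 20.2-fold lower with DAC, at least 19.8-fold lower with OR-2003 and at least 22.2-fold lower with OR-2100. The other 4 members not well above background on every array were probes of SLC25A27, NANOG and 2 unnamed transcripts. NANOG, a pluripotency factor with near-identical pseudogene copies, went from -0.68 to -4.12, -3.90 and -3.90, and only the DAC array was not well above background for it.

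Within the ATF4 and amino acid response list, 12 of the 39 genes at -1 or more on mock were members by their brightest probe (30.8%), against 139 of 12106 named genes (1.15%). This list, like all 23 pathway lists here, was written with earlier results of these data known. The shares of a list are therefore a description and carry no test. At least 2-fold lower with all 3 drugs were 30 of the 39, against 10.8% of all named genes at that level. The list's median differences were -1.57, -1.66 and -1.68, and those of all named genes were -0.23, -0.23 and -0.27. Of 45 genes measured, 2 were at least 2-fold higher with all 3 drugs and at -1 or more there, against 1319 of the 25006 named genes measured. ATF4 itself went from 9.36 to 7.83, 7.85 and 7.72, a mean of 2.94-fold lower, and was no member.

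**Figure D3:**
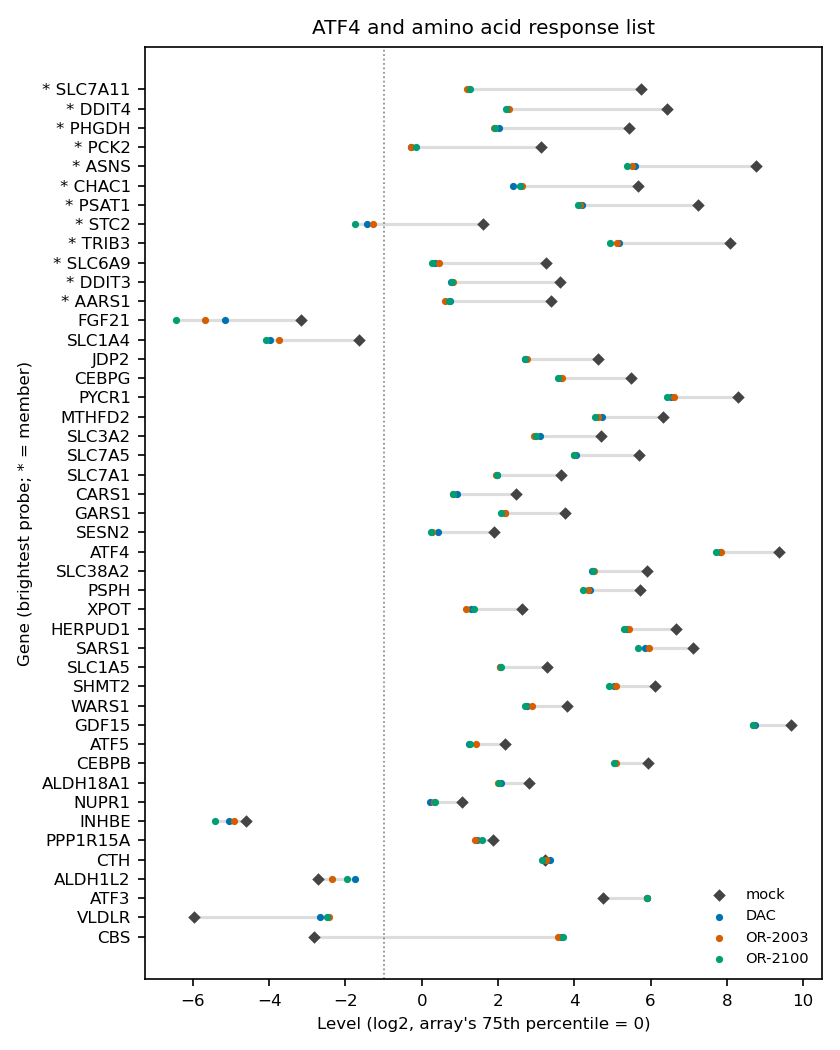
Levels (log2, 75th percentile at 0) of the brightest probe of all 45 measured genes of the ATF4 and amino acid response list on the mock array (diamonds) and the 3 drug arrays (circles), sorted by mean difference, with members starred and the level threshold of -1 dotted. In 30 genes at the threshold all 3 circles lie at least 1 unit left of the diamond, while CBS and ATF3 lie to the right.

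The stress regulators of the list held 4 members. DDIT4, an inhibitor of the growth kinase mTORC1, went from 6.44 on mock to 2.27, 2.28 and 2.21, or 17.98-, 17.9- and 18.7-fold lower. Its probe was spotted 10 times on each array, and the SD over spots was 0.030 on mock and 0.077, 0.073 and 0.085 with the drugs, so the spots of mock and drugs did not overlap. DDIT3, which encodes the transcription factor CHOP, went from 3.64 to 0.75, 0.81 and 0.80, or 7.37-, 7.07- and 7.12-fold lower. TRIB3, a pseudokinase that binds AKT and CHOP, went from 8.08 to 5.17, 5.12 and 4.93, or 7.52-, 7.77- and 8.85-fold lower. CHAC1 was a member by both its probes, and the brighter went from 5.66 to 2.40, 2.63 and 2.59. The spot SD shows scatter within an array only.

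Enzymes of amino acid metabolism gave another 4. ASNS went from 8.75 on mock to 5.59, 5.51 and 5.37, or 8.96-, 9.49- and 10.5-fold lower. PHGDH, the first enzyme of serine synthesis, went from 5.43 to 2.03, 1.90 and 1.92, or 10.6-, 11.5- and 11.4-fold lower. PSAT1, the next enzyme of that route, went from 7.24 to 4.20, 4.14 and 4.08. The third enzyme, PSPH, went from 5.73 to 4.41, 4.37 and 4.22 and was no member, so the 3 steps of serine synthesis were lower by unequal amounts. PCK2, the mitochondrial phosphoenolpyruvate carboxykinase, went from 3.13 to -0.29, -0.29 and -0.16, or 10.7-, 10.8- and 9.81-fold lower. Of ASNS, a dimmer probe did not follow, at 0.46 on mock and 0.71, 0.60 and 0.72 with the drugs. Both probes of the pseudogene ASNSP1 were members, but it shares much of its sequence with ASNS and its own signal is uncertain.

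Members outside the list included further enzymes of nitrogen metabolism, named after their values were seen. GPT2, the mitochondrial alanine aminotransferase, went from 3.19 to 0.84, 0.72 and 0.63. CPS1, which feeds ammonia into the urea cycle, went from 3.31 to 1.05, 0.94 and 0.89. ASS1 was a member by both its probes, and the brighter went from 4.98 to 2.75, 2.76 and 2.60. For these 3 enzymes too the drug arrays lay within 0.3 of each other.

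Among transporters, SLC7A11 and SLC6A9 were members. SLC6A9, which takes up glycine, went from 3.26 on mock to 0.34, 0.46 and 0.28, or 7.57-, 6.99- and 7.90-fold lower. The other transporters of the list at the level threshold were lower by less, with mean folds of 3.24 for SLC3A2, 3.23 for SLC7A5, 3.22 for SLC7A1, 2.66 for SLC38A2 and 2.34 for SLC1A5. SLC3A2 is the shared heavy chain of SLC7A5 and SLC7A11. Of the 2 chains of the cystine exchanger, SLC7A11 had a mean difference of -4.51 and SLC3A2 of -1.70. STC2, a secreted stress-induced glycoprotein, went from 1.60 to -1.43, -1.29 and -1.76.

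All cytosolic aminoacyl-tRNA synthetases were set beside AARS1, as a complete family drawn up after the list values were seen. AARS1 went from 3.39 on mock to 0.75, 0.60 and 0.72, or 6.23-, 6.89- and 6.36-fold lower, and was the only member by brightest probe among the 20 genes of the family. At least 2-fold lower with all 3 drugs were 11 of the 20, against 10.8% of all named genes at the level threshold. Of the 20, 18 were below mock on every drug array, with family medians of -1.05, -1.12 and -1.23. HARS1 and RARS1 were the exceptions, with mean differences of 0.18 and 0.23. Of the 17 mitochondrial synthetases, 16 reached -1 on mock, 1 of them (WARS2) was at least 2-fold lower with all 3 drugs, and the medians were -0.47, -0.50 and -0.49. SARS1, the seryl-tRNA synthetase, had 1 member probe of 3, and its brightest probe had a mean difference of -1.28.

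Of the 45 genes of the list measured, CBS and ATF3 were the 2 at least 2-fold higher with all 3 drugs. That is close to the share of all named genes measured, 1319 of 25006. CBS, which makes cystathionine from homocysteine and serine, went from -2.83 on mock to 3.64, 3.57 and 3.70. ATF3, a stress-induced transcription factor, went from 4.75 to 5.89, 5.92 and 5.92. CTH, the enzyme after CBS on the route to cysteine, stayed at 3.23 on mock and 3.35, 3.25 and 3.16 with the drugs, and GDF15, a stress-induced cytokine, had a mean difference of -0.99. The list thus held members, smaller reductions, near-constant genes and increases side by side.

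Of the 23 pathway lists, 7 held a member and 16 held none. They contain 817 genes, of which 807 were matched to a probe, and 24 of the 178 named member genes stood in any list. The remaining 154 were in none. The ATF4 list held 13 of the 24. The share of all named genes at the level threshold that stood in a list was not computed. The 24 can therefore not be read as many or few.

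The histone list had 4 members among 42 genes at the level threshold, where 1.15% of all named genes were members. The 4 were H2AC20, H4C2, H4C4 and H4C13. At least 2-fold lower with all 3 drugs were 15 of the 42, against 10.8% of all named genes at that level. Of 46 measured, 9 were at least 2-fold higher with all 3 drugs, against 1319 of the 25006 named genes measured. The number of members in this list was 2 with the percentile taken over probes well above background or with the mean of a gene's probes, and 7 with median or spike-in scaling. H4C13 went from 6.94 on mock to 4.84, 4.92 and 4.55, and H2AC20 went from 4.83 to 2.43, 2.34 and 2.12. The linker histone gene H1-1 went from -3.91 to 1.38, 1.52 and 1.09, and the core histone gene H2BC12 went from 3.66 to 5.87, 5.95 and 5.80. The list therefore moved in both directions, with medians of -0.38, -0.39 and -0.49. Histone H4 genes are near-identical copies, and their probes may not tell them apart.

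The list of epithelial junctions and keratins had 3 members among 39 genes at the level threshold, 11 at least 2-fold lower and 0 at least 2-fold higher with all 3 drugs. Of all named genes at that level, 1.15% were members and 10.8% were at least 2-fold lower with all 3 drugs. CLDN4, a tight junction claudin, went from 7.99 on mock to 5.86, 5.93 and 5.93. TJP3, a scaffold of the tight junction, went from 0.05 to -2.57, -2.69 and -2.78. GRHL2, a transcription factor of epithelial cells, went from 0.14 to -2.12, -2.32 and -2.53. With the 75th percentile taken over probes well above background, or with normexp background correction, 0 of the list's genes were members. The list medians were -0.47, -0.44 and -0.54, while KRT8, KRT18 and KRT19 had mean differences of 0.55, 0.52 and 0.34. EPCAM and CDH1, both epithelial adhesion molecules, had mean differences of -1.49 and -1.17.

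The other lists with a member were the NRF2 targets (2 of 22 genes at the level threshold), the EGFR family and ligands (1 of 12), the intestinal identity list (1 of 9) and the immediate early and ERK feedback list (1 of 34). Among all named genes at that level the share of members was 1.15%, and a single gene carries each of the last 3 lists. In the NRF2 list, SLC7A11 and ABCC2, a drug efflux pump, were members. At least 2-fold lower with all 3 drugs were 7 of the 22 genes, against 10.8% of all named genes at that level. ABCC2 went from 3.25 on mock to 0.07, 0.17 and 0.26. NQO1, a quinone reductase and widely used NRF2 target, had levels of 1.81 on mock and -0.08, -0.29 and -0.24 with the drugs, just short of membership with DAC, and HMOX1 had a mean difference of 0.45. EREG, an EGFR ligand, went from 5.20 to 2.93, 2.89 and 2.81. EHF, an ETS factor of epithelia, went from 1.44 to -0.79, -1.05 and -0.71.

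ETV1, an ETS transcription factor of the ERK pathway list, had 4 probes at the level threshold and 3 of them were members. Their mean differences were -3.95, -3.17 and -3.05, and that of the remaining probe was -1.04. The brightest probe went from 1.32 on mock to -1.83, -1.66 and -2.04. Probes of this gene thus agreed in direction and differed in size.

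No gene was a member by its brightest probe in the lists of DNA replication (41 genes at the level threshold), mitosis (45), MYC targets and ribosome biogenesis (39), hypoxia and glycolysis (35), sterol and fatty acid synthesis (34), p53 targets (30), integrins and matrix (27) and ER stress and chaperones (27). The same held for DNA methylation and chromatin (35), nucleoside metabolism (31), interferon-stimulated genes (25), NF-kappaB targets (21), housekeeping genes (19), Wnt targets (18), TGF-beta and BMP targets (16) and metallothioneins and zinc transport (16). Among all named genes at that level only 1.15% were members. In a single list of this size, 0 members is close to that share and does not set the list apart. Of the 27 ER stress and chaperone genes, 2 were at least 2-fold lower with all 3 drugs, against 30 of 39 in the ATF4 list. Of all named genes at the level threshold, 10.8% were. In these 16 lists the count of genes at least 2-fold lower ran from 0 to 5. Of 40 interferon-stimulated genes measured, 25 were at least 2-fold higher with all 3 drugs, against 1319 of the 25006 named genes measured.

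Among the brightest members outside the ATF4 list, ADIRF, a regulator of fat cell formation, went from 8.78 on mock to 6.01, 6.08 and 5.93. SAT1, the rate-limiting enzyme of polyamine breakdown, was a member by both its probes, of which the brighter went from 8.67 to 6.48, 6.47 and 6.55. The ribosomal protein gene RPL22 was also a member by both probes, with mean differences of -2.44 and -2.23, although retrocopies of ribosomal protein genes make its signal uncertain. VGF, a precursor of secreted neuropeptides, went from 6.71 to 4.58, 4.66 and 4.56. By their brighter probes these 4 genes were still bright on the drug arrays.

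Among the other members with the largest reductions, PRDM16, a chromatin regulator, went from 0.93 on mock to -2.78, -2.44 and -2.87. NIBAN1, a stress-responsive gene, went from 4.28 to 0.65, 0.81 and 0.72, or 12.4-, 11.1- and 11.8-fold lower. KCNQ1, a potassium channel, went from 3.50 to 0.24, 0.15 and -0.03. WNT16, a secreted Wnt ligand, went from 3.14 to -0.16, -0.16 and -0.40. All 4 were lower by more than 10-fold on average.

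Further members can be ordered by their roles, and all in this paragraph and the next were named after their values were seen. Among secreted factors, KITLG, the ligand of the receptor KIT, went from 6.25 to 3.49, 3.50 and 3.36, and FGF19, an intestinal hormone, went from 1.62 to -0.53, -0.63 and -0.40. IL20RB, a cytokine receptor chain, went from 2.73 to 0.36, 0.54 and 0.39. TFPI, an inhibitor of coagulation, went from 1.95 to -1.23, -1.50 and -1.28. Secreted and surface proteins were thus present over a wide range of mock levels. Of genes typical of epithelia, S100A14, a calcium-binding protein, went from 5.76 to 2.93, 2.75 and 2.87, RAB25, a trafficking GTPase, went from 3.83 to 1.71, 1.61 and 1.66, and SCNN1A, a subunit of the epithelial sodium channel, went from 1.69 to -1.30, -1.39 and -1.41. MIR200CHG, the host transcript of the epithelial microRNAs miR-200c and miR-141, went from 2.16 to -0.08, -0.01 and -0.32. None of these 4 was in the epithelial list, whose share of members is given above.

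Of signalling genes, PDE4B, which degrades cyclic AMP, went from 4.23 to 2.06, 1.90 and 2.01, and PRKACB, a catalytic subunit of protein kinase A, went from 1.29 to -1.23, -1.58 and -1.54. DEPTOR, an inhibitor of mTOR like DDIT4, went from 0.84 to -1.18, -1.22 and -1.53. TSC22D3, a glucocorticoid-induced gene, went from 3.86 to 1.78, 1.78 and 1.73. CRTC1, a coactivator of CREB, had a member probe that went from 3.74 to 0.64, 0.51 and 0.72, while its dimmer probe had a mean difference of -0.03. Transcription factors and chromatin genes included HDAC4, a histone deacetylase, with a mean difference of -2.13 and HLF, a relative of DBP, with -2.66. ULBP1, a ligand of the natural killer receptor NKG2D, had -2.53.

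A few members lay side by side in the genome, as named after their values were seen. KLRC4, KLRC3 and KLRC1, natural killer cell receptor genes, had mean differences of -2.45, -2.30 and -2.51, but their sequences are so alike that 1 transcript could give all 3 signals. DBP, a clock-controlled transcription factor, and its neighbour CA11 had mean differences of -2.59 and -2.89. NR2F1, a nuclear receptor, and its antisense gene NR2F1-AS1 had mean differences of -2.46 and -2.39 by member probes, while the brightest probe of NR2F1-AS1 was at -0.84. Together these made 4 neighbouring pairs with at most 1 gene between them, and ZBED3 and ZBED3-AS1 were not counted among them. Such pairs were not counted among the other genes at the level threshold, so the number is no measure of clustering.

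Non-coding transcripts were a larger share of members than of other probes. Probes with an NR accession, the RefSeq class of non-coding RNA, were 36 of 237 members (15.2%) and 7.80% of the 18035 probes at the level threshold. Probes with an NM accession, the class of messenger RNA, were 159 members (67.1%) and 77.1% of those probes. Of 11 antisense or divergent members whose partner gene was measured, the partner was also a member for NR2F1-AS1 and ZBED3-AS1. Other partners differed less from mock, such as PSMG3 at 0.14 beside a dim member probe of PSMG3-AS1 at -2.37, and ZNF516 at 0.25 beside ZNF516-AS1 at -2.51. The brighter probe of PSMG3-AS1, at 5.77 on mock, had a mean difference of 0.07, close to that of PSMG3. The partners IQCH and SLC38A4 were below -1 on the mock array and could not have been members.

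Several genes were members by a minor probe. Of the 178 named member genes, 119 had 1 probe at the level threshold and 59 had several. In 9 of the 59 every probe was a member, in 28 others every probe was at least 2-fold lower on average, and in 22 at least 1 probe was not. For 39 of the 178 genes the brightest probe was no member. FOXP1, a forkhead transcription factor, had a member probe at 2.63 on mock and -0.01, -0.04 and -0.01 with the drugs, and a brighter probe at 4.65 on mock and 4.58, 4.53 and 4.56. The probes of this gene thus differed, with a reduction at the dimmer one and almost none at the brighter.

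The same split was seen in AHNAK, a large scaffold protein gene with mean differences of -2.83, -0.51 and -0.42 over 3 probes. CCDC18-AS1 had 5 probes at the level threshold, of which the member was at -2.24 and the other 4 lay between -1.47 and -1.13. DCUN1D5, a gene of the neddylation pathway, had a member probe at -2.34 and a brighter probe at 0.70, and was named after its values were seen, as was FOXP1. Whether the probes read different isoforms was not tested.

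The members had to be lower by 4-fold with each of the 3 drugs, given at the same dose and time, so the rule itself kept out probes on which the drugs differed widely, and the differences between drugs in this paragraph and the next are a description. Over members well above background on both arrays, OR-2003 differed from DAC by a median of -0.03 (SD over probes 0.21, n = 232), OR-2100 from DAC by -0.06 (SD 0.24, n = 234) and OR-2100 from OR-2003 by -0.05 (SD 0.25, n = 233). The corresponding medians over all probes at the level threshold were 0.00, -0.05 and -0.04. In none of these 3 pairs were any members 2-fold apart, where 2 (0.0111%), 4 (0.0222%) and 0 (0.00%) of all such probes were. Probes are not replicates, and with 1 array per drug no test or interval of a difference between drugs could be given.

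The spread between drug arrays was under 0.5 for 211 of the 237 members and 1 or more for LURAP1L alone, whose drug levels were not measured well. The widest spreads among members with a gene name and well above background on all arrays were those of the non-coding transcripts LOC100506271 (0.99) and ZBED3-AS1 (0.82), followed by ANXA10 (0.66), BLID (0.65) and GLDN (0.65). LOC100506271 had -0.38 on mock and -4.16 with DAC, -3.17 with OR-2003 and -3.28 with OR-2100. The lowest of the 3 levels fell on the OR-2100 array for 108 members, on OR-2003 for 74 and on DAC for 55. This lean to OR-2100 was not particular to the members. Where both arrays were well above background, OR-2100 was below DAC in 61.5% of members and 63.9% of all probes at the level threshold. It was below OR-2003 in 58.4% and 61.5%, and OR-2003 was below DAC in 57.3% and 51.2%. The median spread was 0.22 in members and 0.15 in all probes at the level threshold.

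As to the cells themselves, 7 of 10 intestinal epithelial markers were at -1 or more on the mock array, led by KRT19 at 9.34, whereas VIL1 and CDH17 were not well above background. Their summed level (log2) was 10.4 on mock and 10.7, 10.7 and 10.6 with the drugs, and none was a member. Of 15 markers of fibroblasts, endothelium and leukocytes, COL1A1 alone was at -1 or more on mock, at 0.99, and none was a member. The summed level of the 5 leukocyte markers was -0.32 on mock and 2.20, 2.27 and 2.28 with the drugs, and that of the 4 endothelial markers was -0.94 and 1.27, 1.27 and 1.28. The 6 fibroblast markers summed to 1.15 on mock and 2.03, 2.01 and 2.09. Their part in the results was not tested. In a bulk RNA sample, fewer cells with a transcript and less transcript per cell cannot be told apart. Between 31601 and 33282 probes per array were well above background and 0 were saturated. Over 6 spike-in probes, RNA added in fixed amounts, the drug arrays differed from mock by a median of 0.08, 0.20 and 0.04, against -2.41 to -2.49 in the members, and the part of these shifts in the results was not tested.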

How the data were processed

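Gene expression of HML58-3 cells was measured on Agilent SurePrint G3 Human GE 8x60K arrays, 1 array per condition (mock and each drug). The precision rests on that number of arrays alone. The authors deposited the scanner output, in which the intensity of each spot is background-corrected by Agilent Feature Extraction 12.1.0.3 and not normalized between arrays.

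Levels were computed as log2 intensity, averaged over the unmarked spots of a probe, minus the 75th percentile of the 58201 gene probes. The software had marked 98, 81, 52 and 82 of 60901 gene spots, which were left out. With 1 array per condition no test was run. Analyses used Python 3.11.15, pandas 2.3.3 and limma 3.58.1. The 34892 named probes and all promoters came from RefSeq tables (GRCh38.p14), and 45 member probes had no symbol. A fold against a level not well above background is a bound from the lowest level well above background on that array.

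The members and gene lists were chosen with earlier results of these data known. For lists, a gene was read by its brightest probe over the 4 arrays. Genes were chosen by rule: the 12 member probes with the largest mean difference and the 12 brightest on mock. The rule also took the brightest not measured on the drug arrays, and list genes that were members. It took the 3 largest changes either way in each list with a member, and the 6 widest ranges between drugs. Also taken were 3 on each side of the threshold, and genes with many probes. Some genes chosen so are not described above. Among them are increases (KRT7, CLDN23, H1-2, EGFR, NR4A3, DUSP1, KLF6 and TFF2) and reductions (BTC, ERRFI1, ETV5 and PHLDA1). Genes outside the rule were named after their values were seen, as were the comparator genes of the lists and families. Alternatives were other scalings, normexp (offset 50) run on the deposited median intensity, other thresholds, marked spots kept, medians of spots, a floor, means of probes and, added after seeing the data, scaling by 6 spike-in probes. A few items are not reported here.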

Additional observations from a re-analysis of the deposited data

How the results depend on the processing

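All 237 members stayed below mock with all 3 drugs under each scaling and background setting tried. Their choice by a reduction of 2 or more left little room for another outcome, so this is no separate support. The number of members depended on the processing. It was 82 with the 75th percentile over probes well above background, 677 with median scaling, 79 with normexp, 1986 at a 2-fold and 32 at an 8-fold threshold, and 498 with no threshold on mock. The median shift of all probes at the level threshold ranged from -0.48 (median scaling, OR-2003) to 0.04 (percentile of probes well above background, OR-2003). With normexp the members' medians were -1.78, -1.82 and -1.85 for DAC, OR-2003 and OR-2100, and 229 of the 237 were still at least 2-fold lower with all 3 drugs. With the percentile of probes well above background they were -2.17 with OR-2003 and -2.24 with OR-2100. The cause was not tested.

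The ATF4 list had 11 to 14 member genes under the scaling, background, spot and probe settings (other thresholds were not tried on the lists), and with the percentile of probes well above background its median was -1.37 with OR-2003 and -1.43 with OR-2100. The histone list had 2 members with that percentile, 7 with median scaling, 7 with spike-in scaling and 2 with the mean of probes, and its median with that percentile was -0.10 with OR-2003 and -0.24 with OR-2100. The epithelial list had 0 members with that percentile and 0 with normexp. No median of the members or of these 3 lists changed sign, and for the members the rule left little room for it. The series table held the same values as the scanner output and tests nothing. No paired analysis was possible because there was 1 array for a condition and no test, and no array could be left out.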
